A study of Homo sapiens with 6 samples.

Results

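The 10 genes described here, BCL2, BCL2L1, MCL1, BAX, BAK1, BID, BIRC2, BIRC3, BIRC5 and XIAP, encode members of the BCL2 family and of the inhibitor of apoptosis (IAP) family. They were chosen by name as survival and death genes, and include BIRC5 and BCL2L1, which have been described as targets of YAP. They are 10 of the 60612 genes listed in each library, and all 10 passed the expression filter, as did 14770 genes in all. RNA was sequenced from MDA-MB-231, an established human triple-negative breast cancer cell line, carrying as a stable construct either a non-targeting hairpin (Sh-NC, n = 3 libraries) or one that silences YAP1 (Sh-YAP1, n = 3 libraries), all labelled day 3. The labels give no other agent for either group, and no other hairpin against YAP1 was analysed here. Nothing in the labels says that the 3 libraries of a group came from separate cultures, so p-values measure the spread between these libraries, which may be technical. Gene values are sums of transcript values in FPKM, read fragments per kilobase of transcript relative to all mapped fragments, a scale on which genes of different length can be compared. The depth of the libraries is unknown, since no counts come with the values.

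Proteins of the BCL2 family decide whether the outer membrane of the mitochondrion is opened during apoptosis. BCL2, BCL-XL (from BCL2L1) and MCL1 keep it closed, BAX and BAK (from BAK1) form the pores, and BH3-only proteins such as BID tip the balance by binding to both. Released cytochrome c then activates caspases, which XIAP inhibits directly and which cIAP1 (from BIRC2) and cIAP2 (from BIRC3) hold back as ubiquitin ligases in tumour necrosis factor receptor signalling. Survivin (from BIRC5) belongs to the IAP family by its structure, and is also a subunit of the chromosomal passenger complex that works in mitosis. YAP has no DNA-binding domain and acts on its target genes through TEAD transcription factors.

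YAP1, the targeted gene, measured 28.1, 26.2 and 22.9 FPKM in the Sh-NC libraries. In the Sh-YAP1 libraries it measured 3.35, 2.67 and 2.58 FPKM. Here and below, values of a group are listed in the order of replicates 1, 2 and 3. The groups lay far apart, and YAP1 was lower in each Sh-YAP1 library than in any Sh-NC library. The log2 fold change, taken here and below as Sh-YAP1 minus Sh-NC on the log2(FPKM + 1) scale, was -2.79 (SE 0.12, limma adjusted p = 0.0018 after Benjamini-Hochberg correction). From transcripts above 0 in all 6 libraries alone it was -1.78 and did not pass (limma adjusted p = 0.199). This filter leaves out any transcript at 0 in a Sh-YAP1 library, so for the silenced gene it is not independent of the change. Among genes often used to follow YAP activity, ANKRD1 (log2 fold change -0.67, limma adjusted p = 0.0165) and AXL (-0.35, limma adjusted p = 0.0390) fell. Left-out libraries ended both calls, that of AXL for each of the 6 (limma adjusted p 0.0742 to 0.130) and that of ANKRD1 for each but Sh-NC replicate 3 (limma adjusted p 0.0410 without it, and 0.0536 to 0.0672 without another). CCN2 differed by -0.21 (limma adjusted p = 0.130) and CCN1 by -0.0004, and WWTR1, which encodes the YAP paralogue TAZ, differed by 0.20 (limma adjusted p = 0.164), none of which passed the test. Markers fitted the mesenchymal-like triple-negative line in both groups, with VIM between 1645 and 2303 FPKM, CD44 between 114 and 147 FPKM (log2 fold change -0.16, limma adjusted p = 0.347), ESR1 and PGR no higher than 0.07 FPKM, and the leukocyte marker PTPRC no higher than 0.04 FPKM. ERBB2 (14.3 to 18.1 FPKM), the epithelial marker EPCAM (2.43 to 3.27 FPKM), the endothelial marker PECAM1 (0.76 to 1.70 FPKM) and the fibroblast marker COL1A1 (3.64 to 8.32 FPKM) were above 0 in every library, and none of these 4 passed the test between the groups.

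Promoter sequence was examined first, since TEAD factors recognise the core GGAATG. RefSeq windows on GRCh38.p14, from 250 bases before to 50 bases after a start site, were found for 8 members, with 16 windows in all because several members have more than 1 start site. The set of windows used here held none for BIRC5 and MCL1, so their promoters were not searched. GGAATG or its reverse complement CATTCC stood in 0 of the 16 windows, while 14.0% of all 35116 windows held it. Windows of 1 gene can overlap, so the 16 are not independent. The CCN2 window held 3 matches, starting 169, 104 and 95 bases before the start site, and the ANKRD1 window held 2. Of the other genes followed with YAP1, AXL had the motif in 1 of 2 windows and WWTR1 in 0 of 2. The set used held no window for CCN1, which was not searched. The untranscribed bases before BAK1, the only member that passed the test below, and before BCL2L1, a described YAP target, are printed beside those of CCN2 for comparison. They are given 5′ to 3′ on the strand of the gene, which is the minus strand for all of them, and capitals mark the motif. The BAK1 stretch lies at chr6:33580294-33580526, that of BCL2L1 at chr20:31723990-31724213 and that of CCN2 at chr6:131951374-131951622.
BAK1: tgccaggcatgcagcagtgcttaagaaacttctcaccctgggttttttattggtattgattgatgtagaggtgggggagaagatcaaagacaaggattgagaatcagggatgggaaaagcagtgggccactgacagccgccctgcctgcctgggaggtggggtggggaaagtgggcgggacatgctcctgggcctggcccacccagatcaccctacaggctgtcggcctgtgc
BCL2L1: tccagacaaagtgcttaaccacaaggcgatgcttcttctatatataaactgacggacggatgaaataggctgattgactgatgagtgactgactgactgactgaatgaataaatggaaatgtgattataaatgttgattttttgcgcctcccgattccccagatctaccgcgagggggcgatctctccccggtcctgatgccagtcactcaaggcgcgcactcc
CCN2: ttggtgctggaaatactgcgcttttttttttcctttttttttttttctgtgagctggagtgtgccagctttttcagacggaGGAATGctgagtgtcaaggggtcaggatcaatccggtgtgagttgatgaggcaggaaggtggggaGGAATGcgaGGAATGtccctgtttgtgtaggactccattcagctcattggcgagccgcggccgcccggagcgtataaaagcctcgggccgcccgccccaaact
The first pair has no capitals, and the CCN2 stretch shows its 3 matches, the last 2 of them separated by 3 bases. A match is a description of letters, and the absence of a match says only that these letters are not in these windows.

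In the control cells the members spanned a range from about 1 FPKM to over 200 FPKM, as the plot of values by library shows. BCL2L1 was the highest, at 209 ± 50.1 FPKM (SD, n = 3), above 98.2% of the genes tested. MCL1 (85.5 ± 10.3 FPKM) and BAX (76.3 ± 4.93 FPKM) followed, and their ranges overlapped. BAK1 (24.8 ± 0.78 FPKM), BID (21.0 ± 3.10 FPKM), BIRC5 (18.8 ± 3.86 FPKM) and BIRC2 (15.5 ± 0.59 FPKM) came next, and neighbours among these 4 overlapped. XIAP (2.96 ± 0.50 FPKM) and BIRC3 (2.26 ± 0.95 FPKM) also overlapped. BCL2 itself, the founding member, was the lowest at 1.02 ± 0.02 FPKM, above 11.7% of the genes tested. The order of the means in Sh-YAP1 was the same for BCL2L1, MCL1 and BAX at the top and for BIRC2, XIAP, BIRC3 and BCL2 at the bottom. Between these, BIRC5 (23.9 ± 10.6 FPKM), BID (21.8 ± 4.45 FPKM) and BAK1 (19.0 ± 0.53 FPKM) stood in another order, and neighbours among these 3 overlapped.

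**Figure D1:**
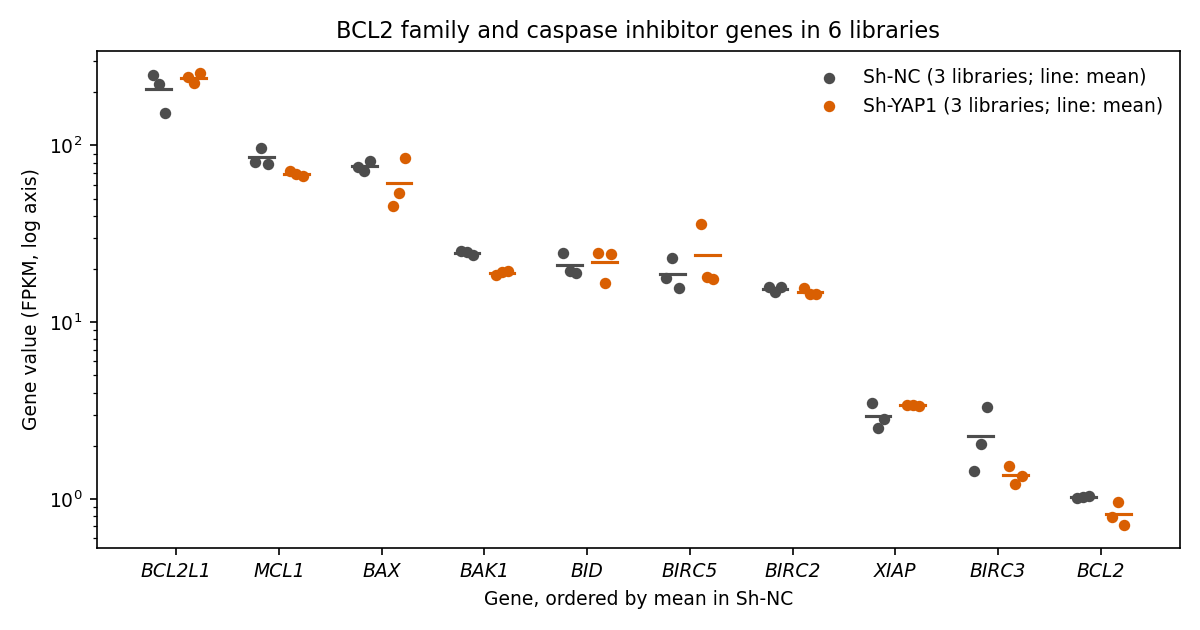
FPKM of the 10 genes (log axis) in the 3 Sh-NC libraries (grey points) and the 3 Sh-YAP1 libraries (orange points), with lines at the group means and genes ordered by their mean in Sh-NC. The points of BAK1, MCL1 and BCL2 lie lower in Sh-YAP1 without overlap, and 1 Sh-YAP1 point of BIRC5, at 36.1 FPKM, stands above the other 5.

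BAK1 was the 1 member of 10 that was called, and it fell. A gene was called where limma gave it an adjusted p under 0.05, with the Benjamini-Hochberg correction taken over every gene tested. Over all genes tested, 3.38% were called, 1.62% lower and 1.75% higher in Sh-YAP1. BAK1, MCL1 and BCL2 were lower in Sh-YAP1 without overlap between the groups (3 of 10, against 14.7% of all genes), and 0 of 10 were higher without overlap (against 14.6% of all genes, and 29.4% in either direction). At an unadjusted p under 0.05, a level that 21.9% of all genes reached, the members were BAK1 and MCL1, 2 of 10. The median log2 fold change of the 10 was -0.10, beside -0.0014 for all genes tested. The plot of changes with their intervals shows all 10.

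**Figure D2:**
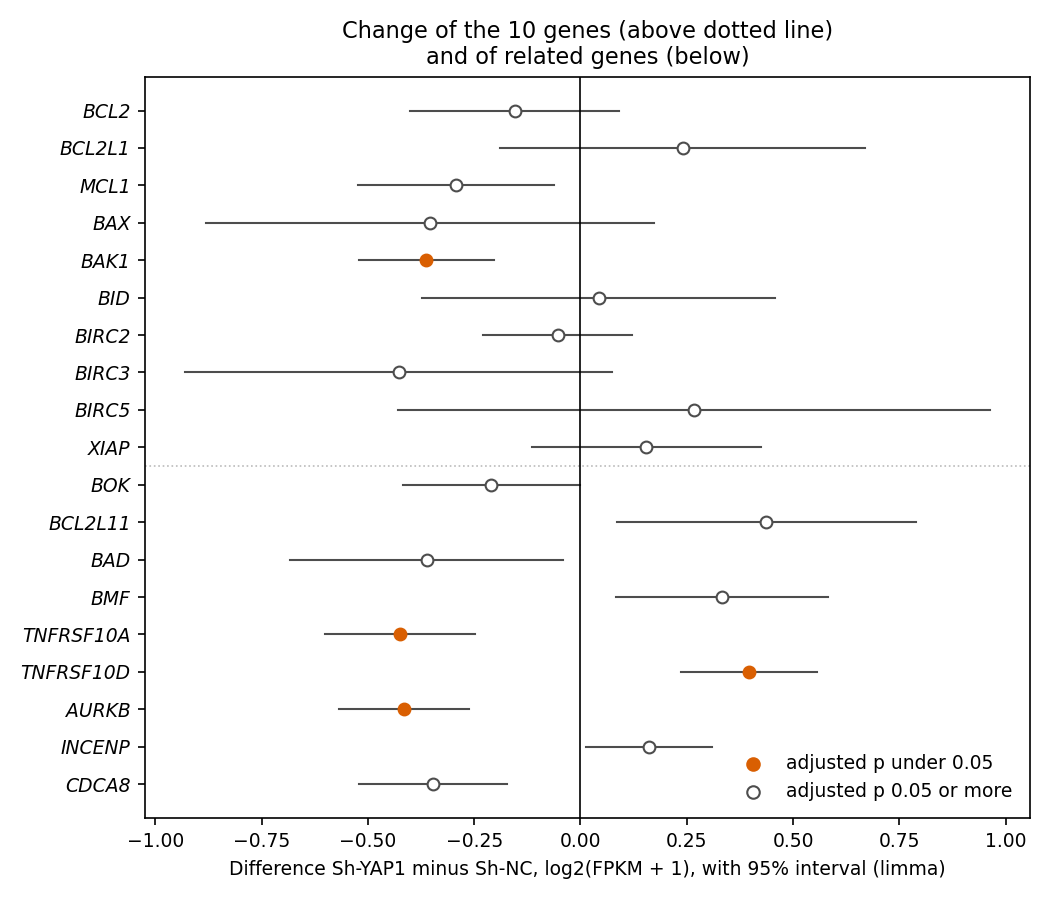
Difference Sh-YAP1 minus Sh-NC in log2(FPKM + 1) with its 95% interval from limma, for the 10 genes (above the dotted line) and for 9 related genes (below), with filled points for an adjusted p under 0.05. BAK1 is the only filled point above the line, at -0.36, and the filled points below it are TNFRSF10A at -0.42, TNFRSF10D at 0.40 and AURKB at -0.42.

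The genes that keep the mitochondrial membrane closed did not pass the test. BCL2, on chromosome 18 of GRCh38 from 63123346 to 63320128, measured 1.01, 1.02 and 1.04 FPKM in Sh-NC and 0.79, 0.96 and 0.71 FPKM in Sh-YAP1. The groups did not overlap, at a level close to the lower end of the genes tested. Its log2 fold change was -0.16 (95% interval -0.40 to 0.09, limma adjusted p = 0.427). BCL2L1, on chromosome 20 from 31664452 to 31723989, measured 250, 223 and 153 FPKM in Sh-NC and 243, 227 and 256 FPKM in Sh-YAP1. Sh-NC replicate 3 was low and the other 5 libraries lay together. It differed by 0.24 (95% interval -0.19 to 0.67, limma adjusted p = 0.482), and 0.03 without Sh-NC replicate 3. ABALON, an antisense gene that overlaps BCL2L1, measured 11.6 to 21.9 FPKM, and whether the counting used strand is not given in the sources used here. MCL1, which encodes a short-lived protein, lies on chromosome 1 from 150574551 to 150579738. It measured 80.8, 97.3 and 78.4 FPKM in Sh-NC and 72.1, 68.9 and 66.9 FPKM in Sh-YAP1. All 3 Sh-YAP1 values lay below the lowest Sh-NC value. The log2 fold change was -0.29 (95% interval -0.52 to -0.06), with an unadjusted limma p of 0.0204 and an adjusted p of 0.150, so the difference did not pass after adjustment.

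Of the pore-forming pair, BAK1 fell and BAX did not pass the test. BAK1, on chromosome 6 from 33572547 to 33580293, measured 25.3, 25.1 and 23.9 FPKM in Sh-NC and 18.5, 19.2 and 19.5 FPKM in Sh-YAP1. Both groups were tight and clearly separate, and the Sh-YAP1 mean was 0.769 of the Sh-NC mean. The log2 fold change was -0.36 (SE 0.07, 95% interval -0.52 to -0.20, limma adjusted p = 0.0416), and exact permutation of its 6 values, two-sided, gave p = 0.1, the smallest that 3 libraries against 3 allow. A single transcript held 99.9% of the BAK1 value. Tested among all transcripts, it had nearly the same log2 fold change (-0.36, SE 0.11) and was not called (limma adjusted p = 0.690). BAK1P1, a pseudogene copy, measured 0.68, 1.11 and 0.98 FPKM in Sh-NC and 0.54, 0.17 and 0.57 FPKM in Sh-YAP1, and BAK1P2 was no higher than 0.07 FPKM. Reads shared between BAK1 and its copies could be split by the counting, and this was not tested. The BAK1 call was lost when any 1 of the 6 libraries was left out, with log2 fold changes from -0.39 to -0.34 and limma adjusted p from 0.0800 to 0.141.

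BAX, on chromosome 19 from 48954815 to 48961798, measured 75.8, 71.7 and 81.5 FPKM in Sh-NC and 45.5, 53.9 and 85.4 FPKM in Sh-YAP1. Sh-YAP1 replicates 1 and 2 were below all Sh-NC libraries, whereas Sh-YAP1 replicate 3 was above all of them. The log2 fold change was -0.35 (95% interval -0.88 to 0.17, limma adjusted p = 0.398). Without Sh-YAP1 replicate 3 it was -0.61 (limma adjusted p = 0.0851), and without Sh-YAP1 replicate 1 it was -0.17 (limma adjusted p = 0.694). From transcripts above 0 in all 6 libraries it was -0.08. BID, the BH3-only member that caspase-8 cleaves, lies on chromosome 22 from 17734138 to 17774770. It measured 24.6, 19.6 and 18.9 FPKM in Sh-NC and 24.7, 16.7 and 24.2 FPKM in Sh-YAP1, with the groups overlapping over nearly their whole range. Its log2 fold change was 0.04 (95% interval -0.37 to 0.46, limma adjusted p = 0.914).

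None of the 4 IAP genes passed the test. BIRC5, on chromosome 17 from 78214186 to 78225636, measured 17.9, 23.1 and 15.5 FPKM in Sh-NC and 36.1, 18.0 and 17.6 FPKM in Sh-YAP1. Sh-YAP1 replicate 1 stood well above the other 5 libraries, which lay together. Its difference was 0.27 (95% interval -0.43 to 0.96, limma adjusted p = 0.643), and -0.06 without Sh-YAP1 replicate 1. XIAP, on chromosome X from 123859724 to 123913979, measured 3.51, 2.53 and 2.85 FPKM in Sh-NC and 3.42, 3.39 and 3.36 FPKM in Sh-YAP1. The Sh-YAP1 values were nearly equal and lay inside the range of Sh-NC. Its log2 fold change was 0.15 (95% interval -0.11 to 0.42, limma adjusted p = 0.471). The related gene BIRC8 was listed at 0 in every library, and the XIAP pseudogene copies were no higher than 0.23 FPKM.

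BIRC3 and BIRC2 are neighbours of the targeted gene on chromosome 11. YAP1 runs from 102110461 to 102233423, BIRC3 from 102317450 to 102339403 and BIRC2 from 102347211 to 102378670, all on the plus strand, with gaps of 84.0 kb and 7.8 kb between them. BIRC2 measured 15.8, 14.8 and 15.9 FPKM in Sh-NC and 15.7, 14.5 and 14.5 FPKM in Sh-YAP1. The 6 libraries differed little, and the groups overlapped. Its log2 fold change was -0.05 (95% interval -0.23 to 0.12, limma adjusted p = 0.714). From transcripts above 0 in all 6 libraries alone, which leaves out transcripts of up to 12.97 FPKM, it was -0.87 (limma adjusted p = 0.610). BIRC3 measured 1.44, 2.04 and 3.31 FPKM in Sh-NC and 1.53, 1.22 and 1.34 FPKM in Sh-YAP1. The highest value was in Sh-NC replicate 3, and Sh-NC replicate 1 lay within the Sh-YAP1 range. The log2 fold change was -0.43 (95% interval -0.93 to 0.07, limma adjusted p = 0.290), and -0.21 without Sh-NC replicate 3. Of 5 other genes around YAP1 on the same arm, 2 passed the filter and 0 were called, the one with the larger difference being TMEM123 (log2 fold change -0.20, limma adjusted p = 0.640).

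The values of the members are sums over 88 transcripts, which differed between libraries in ways that the sums did not show. Of the 60 member transcripts tested (a mean of at least 0.1 FPKM), 0 were called at an adjusted p under 0.05 in limma, 2 had an unadjusted p under 0.05 (against 6.12% of all transcripts), and 20 were at 0 in some library and above 0 in another. Over all transcripts tested, 0.0515% were called. The groups did not overlap for 10 of the member transcripts, 5 lower and 5 higher, against 13.1% of all transcripts. In BCL2L1, the transcript with the largest share (53.5% of the gene value) measured 145, 146 and 110 FPKM in Sh-NC and 103, 108 and 110 FPKM in Sh-YAP1, all 3 Sh-YAP1 values being lower (log2 fold change -0.31, limma adjusted p = 0.769). The next transcript (19.7%) went the other way, with 33.1, 33.9 and 3.11 FPKM in Sh-NC and 72.3, 65.4 and 59.1 FPKM in Sh-YAP1 (log2 fold change 1.97, limma adjusted p = 0.769). The groups did not overlap for either, and neither passed the test. The transcript identifiers do not stand beside the values, so it is not known which of them encode BCL-XL and which the shorter, pro-apoptotic BCL-XS.

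In BIRC2 the gene value was steady while the values listed for its transcripts differed between libraries. The leading transcript measured 13.7, 13.3 and 4.32 FPKM in Sh-NC and 14.1, 3.58 and 0.40 FPKM in Sh-YAP1. Another was at 8.46 FPKM in Sh-NC replicate 3 and 8.23 FPKM in Sh-YAP1 replicate 2 and at 0 in the other 4 libraries, and another was at 12.97 FPKM in Sh-YAP1 replicate 3 only. These differences crossed the groups, and whether they came from the way reads were assigned to transcripts was not tested. In BIRC5, 1 transcript measured 2.65, 7.26 and 2.31 FPKM in Sh-NC and 22.9, 2.45 and 2.59 FPKM in Sh-YAP1, which makes up the high value of Sh-YAP1 replicate 1. Without it, BIRC5 measured 15.2, 15.8 and 13.2 FPKM in Sh-NC and 13.2, 15.5 and 15.0 FPKM in Sh-YAP1, with a log2 fold change of -0.02 (limma adjusted p = 0.944). This transcript was singled out after its values were seen. In BAX, the transcript with the next largest share was at 23.7 and 20.8 FPKM in Sh-NC replicates 1 and 3 and 16.5 FPKM in Sh-YAP1 replicate 3, and at 0 in the other 3 libraries, while the leading BAX transcript measured 30.2 to 39.4 FPKM in Sh-NC and 28.4 to 32.4 FPKM in Sh-YAP1.

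**Figure D3:**
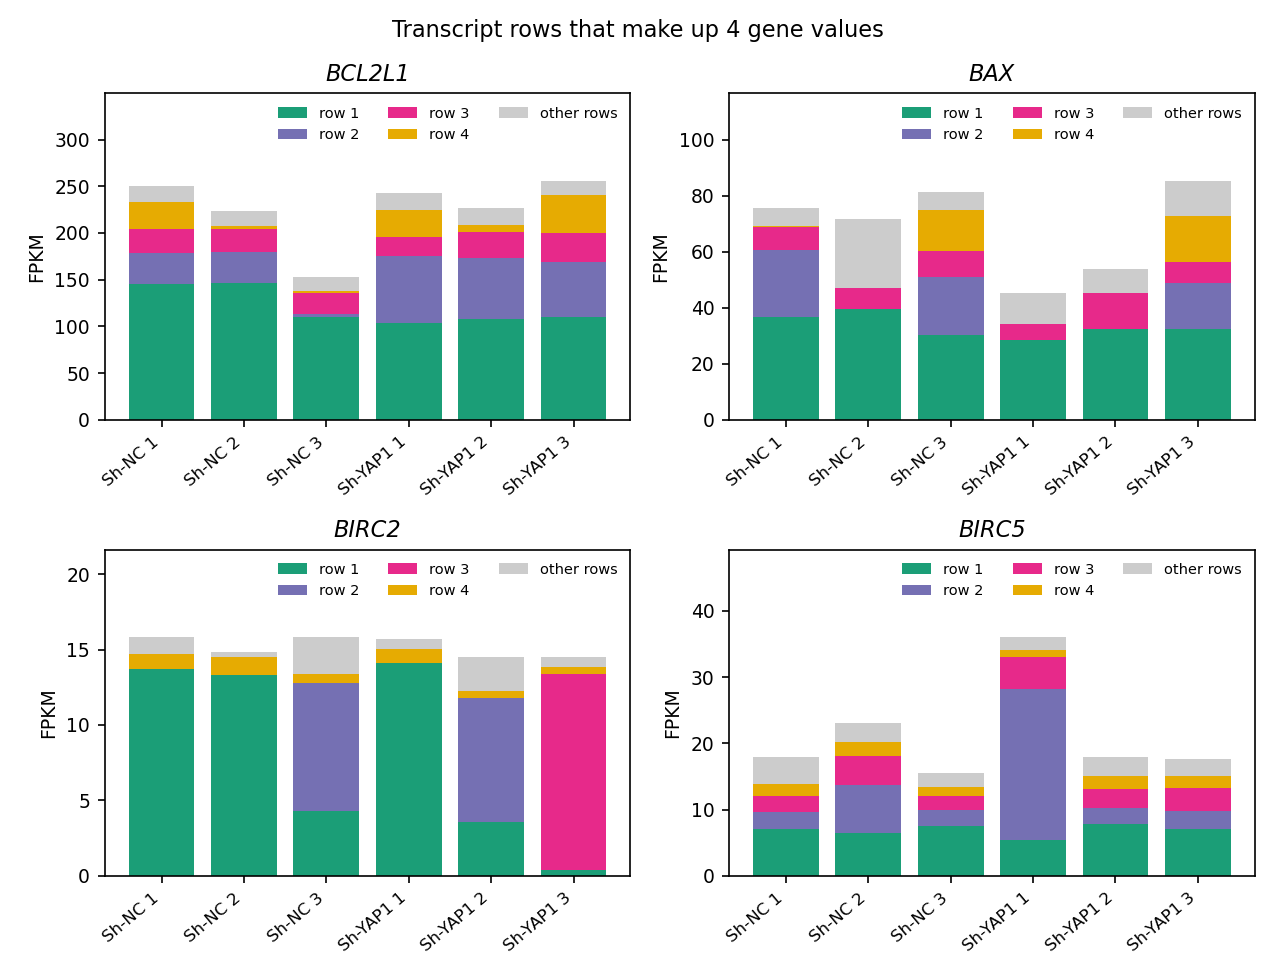
FPKM of the 4 transcripts with the largest shares of the gene value (colours, row 1 being the largest) and of all others (grey), stacked per library for BCL2L1, BAX, BIRC2 and BIRC5. The bars of BIRC2 are of nearly equal height with different colours, and the second colour of BIRC5 is tall in Sh-YAP1 replicate 1 only.

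Pairs of members were also compared as 5 log2 ratios within each library, 3 of an effector to a guardian and 2 between IAP genes, each with an exact two-sided permutation test. BAX relative to BCL2L1 was -1.71, -1.62 and -0.90 in Sh-NC and -2.39, -2.06 and -1.57 in Sh-YAP1. Only Sh-YAP1 replicate 3 lay within the Sh-NC range, and the difference was -0.59 (exact p = 0.3, Benjamini-Hochberg adjusted p = 0.6 over the 5). It was -0.34 without Sh-NC replicate 3 and -0.31 with transcripts above 0 in all 6 libraries. BAX relative to BCL2 differed by -0.20 (exact p = 0.5), with Sh-YAP1 replicate 3 above all Sh-NC libraries. The difference was -0.50 without that library, -0.08 without Sh-YAP1 replicate 2 and -0.02 without Sh-YAP1 replicate 1. Adding 0.1 or 0.01 FPKM in place of 1 before the log gave -0.06 and -0.03. BAK1 relative to MCL1 differed by -0.07 (exact p = 0.6), and between -0.16 and -0.02 with a library left out. BIRC3 relative to BIRC2 differed by -0.37 (exact p = 0.3), by -0.17 without Sh-NC replicate 3 and by -0.58 without Sh-NC replicate 1. With 0.01 FPKM added in place of 1 it differed by -0.59. BIRC5 relative to XIAP differed by 0.11 (exact p = 0.6), and between -0.21 and 0.34 with a library left out. With transcripts above 0 in all 6 libraries, BAX relative to BCL2 turned to 0.04 and BIRC3 relative to BIRC2 turned to 0.65. All 5 had an adjusted p of 0.6, and the design could not reach an exact p under 0.1.

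Of 38 further genes of the apoptosis pathway that are reported here, 30 passed the filter and 2 were called, TNFRSF10D higher and TNFRSF10A lower, against 3.38% of all genes. Their median log2 fold change was 0.0035, with 15 above 0 and 15 below. Of the 7 reported genes of the apoptosome and of caspases, 0 were called by limma and 1 had an unadjusted p under 0.05, against 21.9% of all genes. CASP9, the initiator caspase of the apoptosome, had the largest difference of these 7, with 4.16, 5.41 and 4.30 FPKM in Sh-NC and 2.81, 4.15 and 3.84 FPKM in Sh-YAP1. The groups were apart by 0.01 FPKM only, and the difference of -0.29 did not pass (limma adjusted p = 0.304). It was -0.16 without Sh-YAP1 replicate 1 and -0.20 without Sh-NC replicate 2, where CASP2 differed by more (-0.28 and -0.25). CASP2 measured 13.0, 13.3 and 12.1 FPKM in Sh-NC and 10.5, 10.9 and 9.82 FPKM in Sh-YAP1. All 3 Sh-YAP1 values were below the Sh-NC range, and the difference of -0.27 did not pass either (limma adjusted p = 0.114).

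Of 3 receptors for the death ligand TRAIL that were tested, TNFRSF10A fell, TNFRSF10D rose and TNFRSF10B did not pass. TNFRSF10A, which encodes the death receptor DR4, measured 12.0, 11.8 and 11.5 FPKM in Sh-NC and 8.98, 8.37 and 8.17 FPKM in Sh-YAP1, without overlap (log2 fold change -0.42, SE 0.07, limma adjusted p = 0.0354). TNFRSF10A-AS1, on the opposite strand, measured 0.93 to 2.16 FPKM. TNFRSF10D, which encodes a decoy receptor without a working death domain, measured 19.0, 18.8 and 18.2 FPKM in Sh-NC and 24.7, 24.0 and 25.9 FPKM in Sh-YAP1, also without overlap (log2 fold change 0.40, SE 0.07, limma adjusted p = 0.0346). TNFRSF10B, which encodes the death receptor DR5, measured 34.9, 34.7 and 27.4 FPKM in Sh-NC and 34.1, 35.5 and 38.8 FPKM in Sh-YAP1. Its groups overlapped, and the difference of 0.16 (limma adjusted p = 0.449) was 0.05 without Sh-NC replicate 3. The other 11 genes of the death receptor list, 8 of them tested, were not called. Without any 1 of the 6 libraries, the calls of TNFRSF10A and TNFRSF10D were lost (limma adjusted p 0.0687 to 0.123 for TNFRSF10A and 0.0863 to 0.111 for TNFRSF10D). Tested as transcripts, neither was called. The limma adjusted p was 0.689 for the leading TNFRSF10A transcript (97.8% of the gene value) and 0.640 for the 1 TNFRSF10D transcript.

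Among the other BCL2 family genes, 0 of 8 tested were called. BCL2L2, a guardian, had the largest difference of its list (-0.34, limma adjusted p = 0.822), with 2.52 to 11.6 FPKM in Sh-NC and 2.75 to 15.6 FPKM in Sh-YAP1. It rested on single libraries, and was -0.004 without Sh-NC replicate 1 and 0.006 without Sh-YAP1 replicate 1. BOK, an effector, differed by -0.21 (limma adjusted p = 0.224). BCL2L11, which encodes the BH3-only protein BIM, measured 1.99, 1.45 and 1.40 FPKM in Sh-NC and 2.05, 3.04 and 2.54 FPKM in Sh-YAP1. Its 3 Sh-YAP1 values lay above the Sh-NC range, the lowest of them by little, and the difference of 0.44 did not pass (limma adjusted p = 0.155). Nor did BMF (0.33, limma adjusted p = 0.134) and BAD (-0.36, limma adjusted p = 0.185), whose groups also did not overlap. With transcripts above 0 in all 6 libraries BMF turned to -0.13 and BAD was -0.66, and BAD was -0.24 without Sh-YAP1 replicate 1. Of 2 other IAP genes and 2 IAP antagonists tested, 0 were called, with BIRC6 at 0.26 (limma adjusted p = 0.267) and DIABLO, which encodes the IAP antagonist Smac, at -0.26 (limma adjusted p = 0.535). DIABLO moved between -0.44 without Sh-NC replicate 1 and -0.06 without Sh-YAP1 replicate 2.

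Survivin works in mitosis with Aurora B, borealin and INCENP. AURKB, which encodes the kinase of the complex, fell from 111, 109 and 103 FPKM in Sh-NC to 77.8, 80.8 and 82.6 FPKM in Sh-YAP1 (log2 fold change -0.42, SE 0.06, limma adjusted p = 0.0268), a call lost without any 1 of the 6 libraries (limma adjusted p 0.0578 to 0.102). CDCA8, which encodes borealin, measured 50.4, 49.2 and 49.0 FPKM in Sh-NC and 36.6, 41.8 and 38.0 FPKM in Sh-YAP1. Its groups did not overlap, and the difference of -0.35 just missed the threshold (limma adjusted p = 0.0581). INCENP measured 26.8, 25.9 and 26.5 FPKM in Sh-NC and 30.4, 29.5 and 29.1 FPKM in Sh-YAP1, a difference of 0.16 (limma adjusted p = 0.196). The groups overlapped for BIRC5 and were apart for each of its 3 partners, as for 29.4% of all genes. Whether BIRC5 differed from its partners was not tested.

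**Figure D4:**
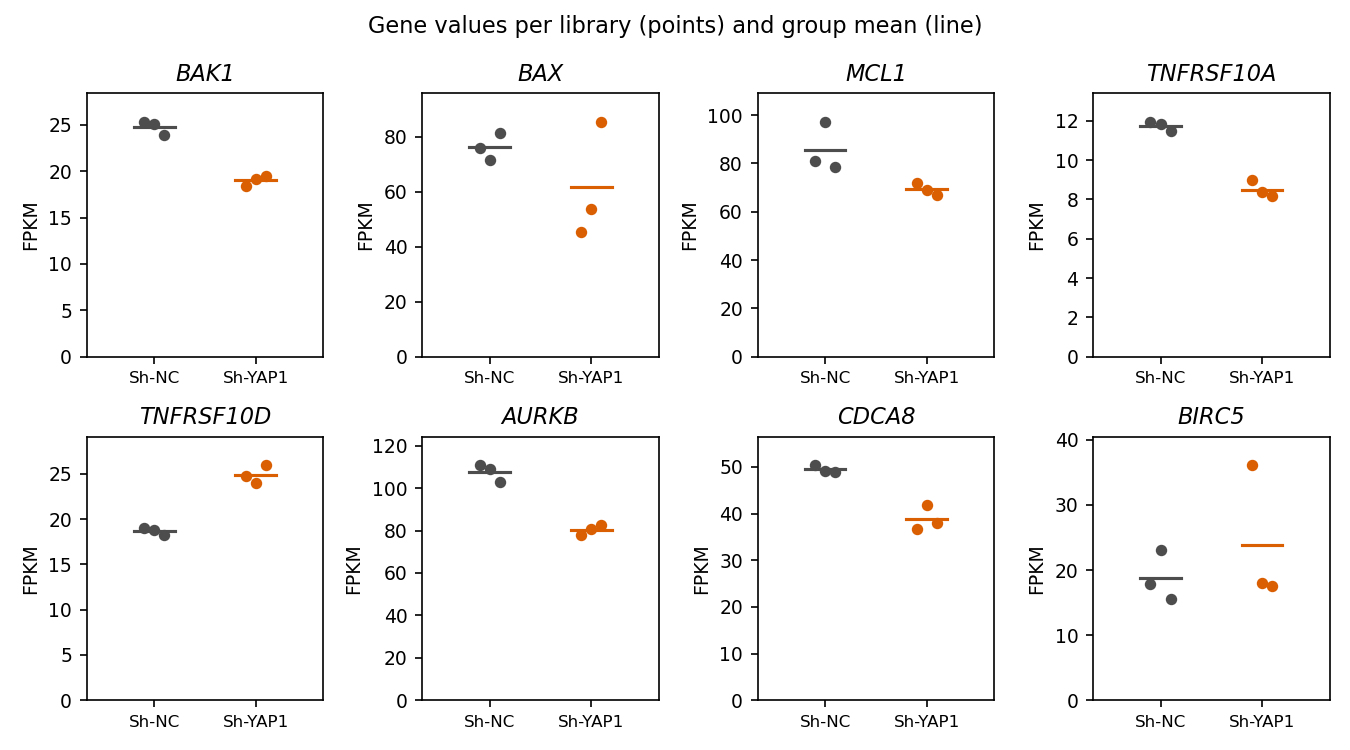
FPKM per library (points) and group mean (line) on axes that start at 0, for BAK1, BAX, MCL1, TNFRSF10A, TNFRSF10D, AURKB, CDCA8 and BIRC5, with Sh-NC in grey and Sh-YAP1 in orange. The groups are apart for BAK1, MCL1, TNFRSF10A, TNFRSF10D, AURKB and CDCA8, and overlap for BAX and BIRC5, where 1 Sh-YAP1 library is far above the other two.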

How the data were processed

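The authors sequenced RNA of MDA-MB-231 cells with Sh-NC or Sh-YAP1 constructs (3 libraries each, day 3). The deposited values are FPKM with 2 decimals, given in each library for 229420 transcripts, which belong to 60612 genes. The submitters' processing notes list hg19, HISAT2 2.0 and Bowtie 0.12.2 without their roles. In the paper's methods the sequencing is listed under a different series, and the link to these libraries rests on cell line, hairpin and replicate number. How reads were assigned to transcripts was fixed before deposition.

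Gene values were sums over all transcripts of a gene identifier (60401 had a symbol). FPKM summed to 467493 to 475116 per library, 13037 to 13219 genes reached 1 FPKM, and library correlations were 0.978 to 0.982 within and 0.971 to 0.976 between groups. Values were analysed as log2(FPKM + 1) for 14770 genes (a mean of at least 0.5 FPKM) and 77655 transcripts (at least 0.1) with limma 3.58.1 in R 4.3.3 (mean-variance trend, Benjamini-Hochberg adjustment). A fold change on this scale understates that of low genes. Single genes and ratios had exact permutation tests. Code was tested on simulated data. Other steps used Python 3.11.15, pandas 2.3.3, numpy 2.4.6 and matplotlib 3.10.9. Positions are from GENCODE 29 on GRCh38, and promoters from RefSeq.

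The members and lists were chosen with earlier results of these data known. The text names all 10 members, YAP1 and, per list, each gene called (up to 4) or otherwise the gene with the largest difference. CASP2, TNFRSF10B, BAD, BMF, CDCA8, INCENP, CCN1, CCN2 and WWTR1 were added after their values were seen. Some genes of the lists are not reported here, and the counts leave them out. Deviations of libraries of equal number correlated at -0.028, 0.062 and 0.004 across genes, so the numbers were not taken to pair libraries. Alternatives were other pseudocounts (0.1 and 0.01), no filter or a mean of at least 1 FPKM, quantile normalization, median centring, no trend, a replicate block, each library left out, and other transcript filters.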

Additional observations from a re-analysis of the deposited data

How the results depend on the processing

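BAK1, the only member called, did not keep its call in every alternative. Its log2 fold change lay between -0.39 and -0.34 in all 16 alternatives, with limma adjusted p from 0.0369 to 0.165, and it was called in 6 of them. The number of members called, 1 as reported, was 0 without a filter, without a mean-variance trend, with the replicate block, with transcripts above 0 in all 6 libraries, and with each library left out (0 to 0). Over all genes, 499 calls became 232 without a filter, 230 with transcripts above 0 in all 6 libraries, 1 with the replicate block (2779 at an unadjusted p under 0.05), and 78 to 171 with a library left out. No member transcript was called by limma in the settings run at the transcript level (0 to 0 with a library left out), which do not include the transcript filters applied before summing. TNFRSF10A was called in 7 of 16 alternatives, TNFRSF10D in 8 and AURKB in 9, in the same direction in all 16. YAP1 missed the threshold only with transcripts above 0 in all 6 libraries (-1.78, limma adjusted p = 0.199), a filter not independent of its silencing. The labels do not say whether libraries of equal number share a culture or a batch. YAP1 was the 1 gene called with the block (limma adjusted p = 0.0234).

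Differences that turned direction were not called in any setting. With transcripts above 0 in all 6 libraries, BID was -0.20, BMF -0.13, CCN1 0.063, the log2 ratio of BIRC3 to BIRC2 0.65 and that of BAX to BCL2 0.040. The log2 ratio of BIRC5 to XIAP was -0.012 without Sh-NC replicate 1 and -0.21 without Sh-YAP1 replicate 1. CCN1 was 0.056 with quantile normalization, and BIRC5 was -0.016 without 1 transcript, an alternative chosen after seeing the data. With a library left out, the ranges were -0.051 to 0.22 for BID, -0.062 to 0.44 for BIRC5, -1.05 to 0.021 for BCL2L2, -0.34 to 0.058 for TMEM123 and -0.090 to 0.051 for CCN1. Members other than MCL1 that kept their direction without a call in all alternatives still moved by over 1.5 times in size, from -0.33 to -0.11 for BCL2, 0.032 to 0.38 for BCL2L1, -0.61 to -0.075 for BAX, -0.87 to -0.035 for BIRC2, -0.65 to -0.21 for BIRC3 and 0.065 to 0.25 for XIAP. Among the other genes named, BMF was 0.16 with transcripts of at least 0.1 FPKM, BMF 0.59 and BCL2L11 0.65 with a pseudocount of 0.01, TMEM123 -0.37 with transcripts above 0 in all 6 libraries, CCN2 -0.096 with quantile normalization and BIRC6 0.17 without Sh-NC replicate 2. The values of -0.33 for BCL2 and -0.65 for BIRC3 also came with a pseudocount of 0.01. A smaller pseudocount shrinks the fold changes of low genes less. What moved the other differences was not tested.

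Without counts, the depth limit of single values is unknown. The 95% intervals of BAX, BIRC3 and BIRC5 were the widest among the members and leave changes of 0.5 on the log2 scale in at least 1 direction inside them. Those of BCL2L1 (-0.19 to 0.67), MCL1 (-0.52 to -0.06) and BAK1 (-0.52 to -0.20) also hold a change of 0.5.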
